A study of Mus musculus with 12 samples.

Results

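The 4 members of the *Tsc22d* family (*Tsc22d1*, *Tsc22d2*, *Tsc22d3* and *Tsc22d4*) and 5 other transcription regulators (*Zbtb16*, *Cebpb*, *Cebpd*, *Tfcp2l1* and *Bcl6*) were followed in intestinal stem cells (ISCs) of mice after restraint stress and after corticosterone (CORT). These 9 genes, of 47729 in the count table, were picked by symbol as regulators that move after glucocorticoids, together with their close relatives, and the differences between stress and Ctrl and between CORT and vehicle were known when they were picked. Their values in those 2 comparisons are therefore given as a description, without a p-value. The word "induced" held for *Tsc22d3*, *Zbtb16* and *Tfcp2l1* in both comparisons and for *Bcl6* in CORT, whereas *Cebpb* was called lower in CORT and was not past the thresholds in stress. *Cebpd* and the remaining *Tsc22d* genes were not past the thresholds in either.

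All mice were *Lgr5-EGFP-IRES-CreERT2* animals aged 8 to 10 weeks, of both sexes, whose *Lgr5* gene, a marker of these stem cells, carries a green fluorescent reporter. Cells were sorted from small intestinal crypts as EpCAM+ and CD24-, CD31-, CD45- and TER119- cells with the brightest green signal, so the data describe only cells that pass this gate. The 4 groups had 3 libraries each, namely unrestrained animals (Ctrl), animals restrained once within 1 day (stress, abbreviated CRS in the sample titles), animals given the carrier alone, sulfobutylether-β-cyclodextrin, into the peritoneum (vehicle), and animals given 5 mg/kg of CORT by the same route, also once (CORT). The libraries are Ctrl 1, 2 and 3, stress 1+2, 3 and 4+5+6, vehicle 3, 5 and 6, and CORT 2, 4 and 5, and the joined numbers read as pools of several mice. The general restraint protocol of the study uses sessions of 3 h and keeps food and water from the controls for as long, and whether both held for this single exposure is not stated. The sex of the mice behind each library is not given in the sources used here.

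Corticosterone binds the glucocorticoid receptor, which moves to the nucleus and acts on genes directly at its response elements or by holding other factors in check. *Tsc22d3* encodes GILZ, the glucocorticoid-induced leucine zipper, a small protein known for binding and restraining NF-kappaB and AP-1. *Zbtb16* encodes PLZF, a repressor with a BTB domain and zinc fingers that recruits corepressors, and *Bcl6* encodes a repressor of the same family. *Cebpb* and *Cebpd* encode basic leucine zipper activators of the C/EBP family, known from acute phase and adipocyte genes. *Tfcp2l1* encodes a factor of the CP2 family known from naive pluripotent stem cells and from kidney and gland epithelium.

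Windows from 250 bases before to 50 bases after annotated starts (RefSeq, build GRCm38.p6, which shares its coordinates with mm10) were at hand for 5 of the 9 genes, *Tsc22d1*, *Tsc22d3*, *Cebpb*, *Tfcp2l1* and *Bcl6*, with 12 windows in all, and not for *Tsc22d2*, *Tsc22d4*, *Zbtb16* and *Cebpd*. The 250 bases before 5 of these starts are shown for 3 genes that rose after CORT and for *Cebpb*, which fell, including both of their windows that hold AGAACA. Another window each of *Tsc22d3* and *Bcl6* is not shown. They read 5′ to 3′ on the strand of the gene, and capitals in the second and the fourth mark AGAACA, a single arm of the glucocorticoid response element, in its reverse complement. The stretches lie at chrX:140542669-140542918 (minus strand), chrX:140600523-140600772 (minus), chr1:118627695-118627944 (plus), chr16:23981284-23981533 (minus) and chr2:167688665-167688914 (plus).
Tsc22d3 start at chrX:140542668: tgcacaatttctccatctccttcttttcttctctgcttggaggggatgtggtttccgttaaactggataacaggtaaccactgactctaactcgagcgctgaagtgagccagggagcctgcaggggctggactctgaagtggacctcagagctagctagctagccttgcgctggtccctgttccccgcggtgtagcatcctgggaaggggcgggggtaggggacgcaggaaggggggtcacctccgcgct
Tsc22d3 start at chrX:140600522: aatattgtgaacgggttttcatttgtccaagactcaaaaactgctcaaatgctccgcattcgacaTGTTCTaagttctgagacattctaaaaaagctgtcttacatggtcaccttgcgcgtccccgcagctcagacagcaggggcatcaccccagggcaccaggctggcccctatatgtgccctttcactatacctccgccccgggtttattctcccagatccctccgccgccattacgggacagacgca
Tfcp2l1 start at chr1:118627945: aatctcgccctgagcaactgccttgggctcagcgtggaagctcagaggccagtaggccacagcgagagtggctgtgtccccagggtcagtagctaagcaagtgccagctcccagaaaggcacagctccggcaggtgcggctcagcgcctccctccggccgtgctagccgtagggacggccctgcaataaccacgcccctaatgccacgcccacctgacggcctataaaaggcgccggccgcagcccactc
Bcl6 start at chr16:23981283: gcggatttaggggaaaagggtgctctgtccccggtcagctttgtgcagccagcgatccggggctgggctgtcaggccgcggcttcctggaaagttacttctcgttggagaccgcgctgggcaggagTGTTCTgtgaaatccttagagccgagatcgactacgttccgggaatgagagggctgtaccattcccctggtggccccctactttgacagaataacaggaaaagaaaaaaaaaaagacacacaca
Cebpb start at chr2:167688915: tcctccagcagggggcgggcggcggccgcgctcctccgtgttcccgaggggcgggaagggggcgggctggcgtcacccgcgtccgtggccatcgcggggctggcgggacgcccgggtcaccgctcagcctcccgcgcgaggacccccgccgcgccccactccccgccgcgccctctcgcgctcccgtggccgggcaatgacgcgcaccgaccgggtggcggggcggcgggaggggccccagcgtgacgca

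The full response element (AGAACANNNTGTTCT) was in none of the 12 windows, and in 3 of the 32851 windows of all genes (0.00913%). Its single arm AGAACA was found on either strand in 3 windows, 185 bases before the distal *Tsc22d3* start, 124 bases before a *Bcl6* start and 137 bases before a *Tsc22d1* start. That arm occurs in 19.0% of all windows, so 3 of 12 is a description of these letters and no evidence of binding. The C/EBP motif TTGCNNAA, held by 10.8% of all windows, was in none of the 12, and the E-box CACGTG, held by 7.15%, was in 1 *Tsc22d1* window (33 bases before its start) and 1 *Bcl6* window (60 bases before). The *Cebpb* window contained 80.7% G and C, more than 99.3% of all windows, against a median of 52.7%. No match says only that the letters are not in these windows.

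A gene was called when edgeR's quasi-likelihood test gave an adjusted p under 0.05 and a change of more than 2-fold, the thresholds of the study. Levels per library are counts scaled to library size with TMM factors (CPM). Total counts were 15934907 to 17135770 in Ctrl and stress, 16465961 to 31280267 in vehicle and 29426183 to 69533214 in CORT. The 6 stem cell markers, *Olfm4* foremost, summed to 10600 to 13900 CPM in every library. Among them *Ascl2* fell by 1.23 on the log2 scale in stress (edgeR adjusted p = 0.000336), and *Ascl2* (by 0.998, edgeR adjusted p = 0.0114), *Lgr5* (by 0.43, edgeR adjusted p = 0.0277) and *Smoc2* (by 0.31, edgeR adjusted p = 0.0474) fell in CORT by less than 2-fold. In contrast, the 6 blood markers summed to at most 6.57 CPM and the 6 stromal and endothelial markers to at most 5.5 CPM. Enterocyte markers (*Alpi*, *Apoa1*, *Apoa4*, *Fabp1*, *Fabp2* and *Sis*, none at 0 in any library) moved with stress: they summed to 178 to 201 CPM in Ctrl, to 823, 320 and 1670 CPM in stress 1+2, 3 and 4+5+6, to 136 to 189 CPM in vehicle and to 127 to 194 CPM in CORT, and 5 of the 6 were called higher in stress. The 6 goblet markers summed to 488 to 610 CPM in Ctrl and 502 to 1450 CPM in stress, where *Clca1* and *Zg16* were called higher. The 6 Paneth markers summed to 135 to 172 CPM in Ctrl, 168 to 261 in stress, 185 to 213 in vehicle and 105 to 118 in CORT. *Mmp7* was called lower in CORT (32.3 to 42.3 CPM), but vehicle (78.7 to 100.8 CPM) was itself called higher than Ctrl (16.4 to 25.6 CPM). The other 5 Paneth markers had negative log2 differences between vehicle and Ctrl. In CORT all 6 had negative log2 fold changes. *Defa24* (-0.67, edgeR adjusted p = 0.0326), *Defa17* (-0.66, edgeR adjusted p = 0.0204) and *Itln1* (-0.68, edgeR adjusted p = 0.0384) also passed the adjusted p there, under 2-fold. In stress *Mmp7* rose under 2-fold (0.87 ± 0.16, edgeR adjusted p = 0.0285). The 6 tuft markers summed to 8.91 to 9.95 CPM in vehicle and 5.77 to 9.18 CPM in CORT. Of the 4 tested there, 2 had a positive and 2 a negative log2 fold change. Only *Pou2f3* was called, lower (4.57 CPM at most in vehicle). Of the 2 stromal and endothelial markers tested in CORT, the endothelial *Pecam1* was called higher (3.25 CPM at most) and *Vwf* stood at 0.07 ± 0.33. The part of these cell types in the results below was not tested. In sorted bulk RNA, fewer cells of a type and less RNA per cell cannot be told apart.

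After restraint, 3 of the 9 genes were called higher and none lower, where 0.612% of the 13722 genes tested were called higher and 0.138% lower. After CORT, 4 were called higher and 1 lower, where 1.13% and 0.737% of the 14656 genes tested were. In CPM, all stress libraries lay above all Ctrl libraries for 3 of the 9 and below them for 2, where this held for 10.1% and 10.3% of all genes. Also in CPM, all CORT libraries lay above all vehicle libraries for 4 and below them for 1, where this held for 15.7% and 13% of all genes. Since the choice of genes used these comparisons, the shares only state the background. The median log2 fold change of the 9 genes was -0.02 in stress and 0.10 in CORT, beside -0.00281 and 0.0139 over all genes tested. These medians run over genes that moved in opposite directions.

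**Figure D1:**
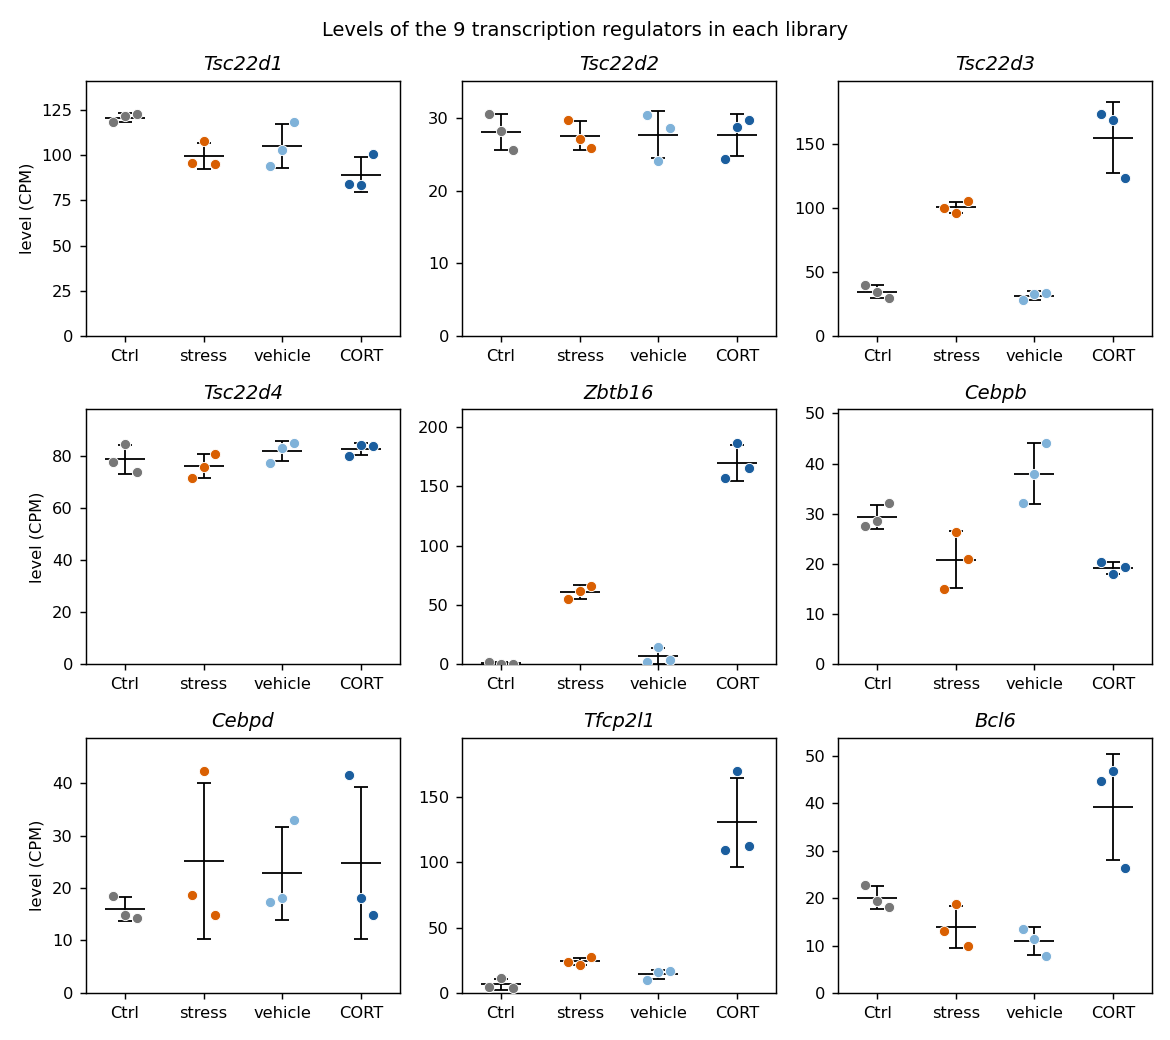
Level (CPM, linear axes from 0) of each gene in the 12 libraries. Points are libraries, horizontal bars group means and whiskers SD (n = 3); *Zbtb16* lies at 0.297 to 2.33 CPM in Ctrl and 157 to 187 CPM in CORT, and *Cebpd* shows 1 high library in stress, vehicle and CORT.

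*Tsc22d3* (chrX:140539528-140600659, minus strand, 6 annotated transcripts) was measured at 39.7, 34.7 and 29.6 CPM in Ctrl and at 99.96, 96.4 and 105.5 CPM in stress. The vehicle libraries had 28.01, 33.03 and 33.95 CPM and the CORT libraries 173.5, 168.8 and 123.5 CPM. Every treated library lay above every control, and the control groups shared the same range. The log2 fold change was 1.54 ± 0.12 (SE, n = 3 per group), or 2.91-fold, in stress and 2.27 ± 0.14, or 4.83-fold, in CORT. Stress 3 had the lowest enterocyte marker sum of the stress libraries (320 CPM), still above the 178 to 201 CPM of Ctrl. For *Tsc22d3* it was 2.78-fold above the Ctrl mean, beside 2.88-fold in stress 1+2 and 3.04-fold in stress 4+5+6. The differences kept to 1.44 to 1.65 in stress and 2.19 to 2.41 in CORT on the log2 scale when any 1 library was left out. The change in stress minus that in CORT was -0.73 ± 0.19 on the log2 scale.

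*Tsc22d1* (chr14:76414961-76507765), whose product is known as a partner in TGF-beta signaling, was the most abundant of the 9 genes per length in both control groups. Its level was 118, 122 and 123 CPM in Ctrl and 95.6, 108 and 95.1 CPM in stress. Vehicle had 94.0, 103 and 118 CPM, and CORT 84.1, 83.2 and 100 CPM. In CPM the stress libraries all lay below Ctrl, whereas CORT and vehicle overlapped. Relative to the Ctrl mean, stress 3 was at 0.892, beside 0.792 in stress 1+2 and 0.787 in stress 4+5+6. The log2 fold changes were -0.28 ± 0.09 in stress and -0.26 ± 0.11 in CORT, and neither was past the thresholds. *Tsc22d2* (chr3:58414715-58466783) ranged from 24.1 to 30.5 CPM over all 12 libraries, with log2 fold changes of -0.02 ± 0.13 in stress and -0.03 ± 0.13 in CORT. *Tsc22d4* (chr5:137745730-137768450), which like *Tsc22d2* belongs to the long isoforms known to bind NRBP1 and WNK kinases, ranged from 71.6 to 85.2 CPM, with log2 fold changes of -0.05 ± 0.09 and -0.01 ± 0.07. All groups overlapped in both genes in CPM.

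Per length, the family as a whole changed its make-up. The 4 genes summed to 96.7 to 101 FPKM (fragments per kilobase of transcript, scaled to library size) in Ctrl, 111 to 118 in stress, 80.3 to 89.2 in vehicle and 118 to 135 in CORT. FPKM and CPM did not always order the libraries alike. In FPKM, *Tsc22d2* was at 3.1 to 3.6 in stress, wholly below the 3.86 to 4.81 of Ctrl. *Tsc22d1* was at 28.8 to 39.6 FPKM in CORT, wholly below the 43.9 to 48.7 of vehicle, which lay below the 55.6 to 59.3 of Ctrl. *Tsc22d3* made up 19.6%, 17.1% and 15.1% of this sum in Ctrl and 42.6%, 39.0% and 43.2% in stress. It made up 17.3%, 19.2% and 18.2% in vehicle and 59.2%, 58.4% and 47.6% in CORT. *Tsc22d1* made up 56.7% to 60.6% in Ctrl, 36.4% to 42.1% in stress, 52.1% to 54.7% in vehicle and 23.0% to 33.6% in CORT. The largest share thus passed from *Tsc22d1* to *Tsc22d3* in all 3 CORT libraries and in 2 of the 3 stress libraries, stress 3 being the exception. These shares follow from the levels that chose the genes and carry no test.

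**Figure D2:**
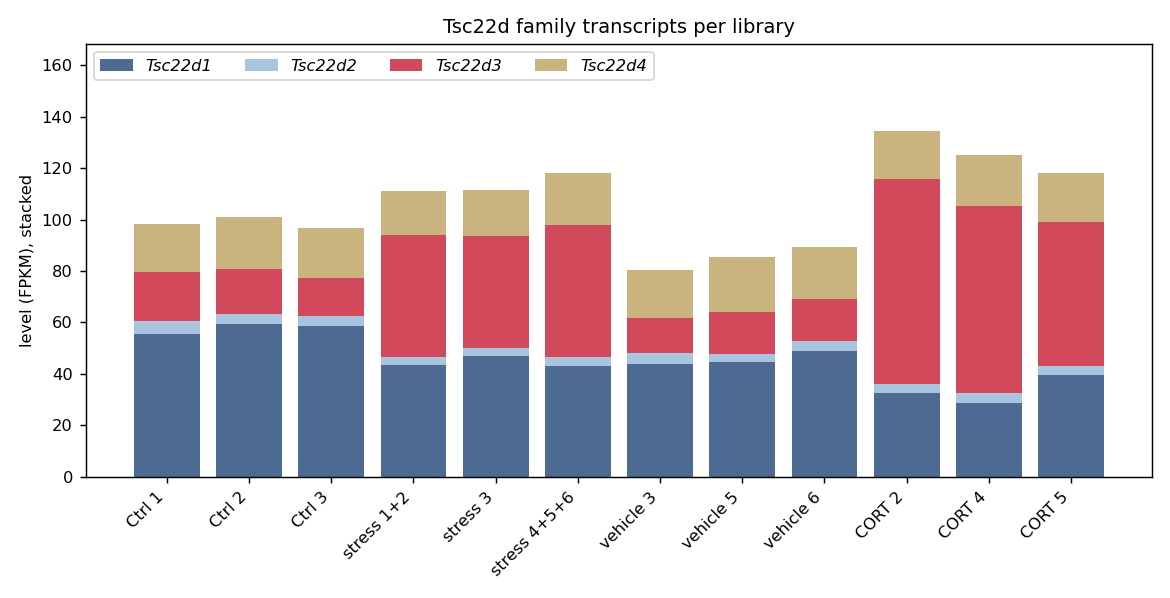
Stacked levels (FPKM, linear axis from 0) of the 4 *Tsc22d* genes in each of the 12 libraries. *Tsc22d3* fills 15.1% to 19.6% of the bars in Ctrl, 39.0% to 43.2% in stress, 17.3% to 19.2% in vehicle and 47.6% to 59.2% in CORT.

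*Zbtb16* (chr9:48654311-48835945, minus strand) changed most among the 9 genes in both comparisons. It was measured at 2.33, 0.297 and 0.363 CPM in Ctrl, or 40, 5 and 6 counts. A count of 0 would still allow 12 counts (3 read pairs, counting error only), and Ctrl 2 and Ctrl 3 were under that floor, so the gene was barely detected there. Stress brought it to 54.8, 61.9 and 65.9 CPM. The vehicle libraries had 2.13, 14.5 and 3.79 CPM, and the CORT libraries 157, 187 and 165 CPM. Treated and control libraries were far apart in both comparisons, but the controls themselves differed widely, with Ctrl 1 and vehicle 5 well above their groups. The log2 fold change was 5.91 ± 0.47 (60.2-fold) in stress and 4.67 ± 0.51 (25.4-fold) in CORT. Without Ctrl 1 the stress value became 7.50, and without vehicle 5 the CORT value became 5.76, so the size of either change rests on these libraries while its direction does not. With a filter of 10 counts in every library the gene was not tested in stress. Stress 3 was 62.1-fold above the Ctrl mean, within the 55.0-fold to 66.2-fold of the others.

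*Bcl6* (chr16:23965052-23988852, minus strand) behaved differently after the 2 treatments. It was measured at 22.7, 19.3 and 18.1 CPM in Ctrl and 13.0, 18.75 and 9.97 CPM in stress. In vehicle it was at 13.5, 11.5 and 7.87 CPM and in CORT at 44.65, 46.76 and 26.3 CPM. All CORT libraries lay above all vehicle libraries, whereas in CPM stress 3 overlapped with Ctrl and the other stress libraries lay below it. In FPKM all stress libraries (2.62 to 4.62) lay below Ctrl (4.72 to 5.77). Relative to the Ctrl mean in CPM, stress 3 was at 0.935, beside 0.649 in stress 1+2 and 0.497 in stress 4+5+6. Their enterocyte marker sums were 320, 823 and 1670 CPM, and the part of that RNA was not tested. The log2 fold change was 1.83 ± 0.26 (3.56-fold) in CORT, a call lost in 1 of the fits to FPKM, and -0.53 ± 0.23 in stress, which was not past the thresholds. The stress minus CORT difference of the changes was -2.36 ± 0.37 on the log2 scale, and *Bcl6* was the only one of the 9 genes past an adjusted p of 0.05 for it, where 0.388% of the 14415 genes tested were. With DESeq2 it was joined by *Tsc22d3*, and in the fits to FPKM and without Ctrl 1, Ctrl 2, stress 1+2 or CORT 4 none was past it. Vehicle lay below Ctrl for this gene, which enters that difference. Both comparisons behind the difference were known when the 9 genes were picked, so these calls are a description.

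*Cebpb* (chr2:167688915-167690418, a single exon) was measured at 27.5, 28.6 and 32.05 CPM in Ctrl and 15.1, 26.4 and 21.1 CPM in stress. In vehicle it was at 32.1, 37.8 and 44.1 CPM, and in CORT at 20.3, 18.0 and 19.4 CPM. Treated libraries lay below controls in both comparisons. Relative to the Ctrl mean, stress 3 was at 0.896, beside 0.512 in stress 1+2 and 0.718 in stress 4+5+6. The log2 fold change was -1.01 ± 0.13 in CORT, just past the 2-fold threshold, and -0.49 ± 0.19 in stress, not past it. The CORT call was lost, at a nearly equal size, without vehicle 6 (-0.89), without CORT 4 and with no filter on low counts. The locus shares 908 bases of gene span with *Tmem189* on the opposite strand, of which at most 312 are exon in both genes. *Tmem189* was at 3.52 to 9.40 CPM. It fell by 1.18 ± 0.25 on the log2 scale in stress (edgeR adjusted p = 0.0462) and stood at -0.24 ± 0.31 in CORT (edgeR adjusted p = 0.711). Whether strand was used in counting is not stated, so reads of the shared stretch cannot be assigned to either gene with certainty.

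*Cebpd* (chr16:15887286-15888466) was measured at 18.6, 14.9 and 14.3 CPM in Ctrl and 18.6, 42.3 and 14.8 CPM in stress. Vehicle had 17.3, 18.1 and 32.9 CPM and CORT 41.5, 18.2 and 14.9 CPM. In each group but Ctrl a single library stood apart (stress 3, vehicle 6 and CORT 2) while the others stayed near Ctrl, and all groups overlapped. The log2 fold change was 0.66 ± 0.34 in stress and 0.10 ± 0.38 in CORT. Without stress 3 the first became 0.07, and without CORT 2 the second turned to -0.49, so these data give no direction for the gene.

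*Tfcp2l1* (chr1:118627945-118685168) was measured at 4.54, 11.4 and 3.94 CPM in Ctrl and 23.5, 21.7 and 27.2 CPM in stress. In vehicle it was at 9.93, 15.7 and 16.65 CPM, and in CORT at 109, 170 and 112 CPM. Both treatments lifted every library above its controls, and the CORT libraries were the highest of all. The log2 fold change was 1.87 ± 0.35 (3.65-fold) in stress and 3.18 ± 0.22 (9.05-fold) in CORT. The CORT call held in every alternative run. The stress call was lost without Ctrl 1, Ctrl 3, stress 1+2 or stress 4+5+6, with no filter on low counts and in the fits to FPKM, and its log2 fold change ranged from 1.05 to 2.51. The change in stress minus that in CORT was -1.32 ± 0.44. Stress 3 was 3.28-fold above the Ctrl mean, beside 3.56-fold and 4.11-fold. The part of the enterocyte marker RNA in the stress values of this and the other genes was not tested.

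**Figure D3:**
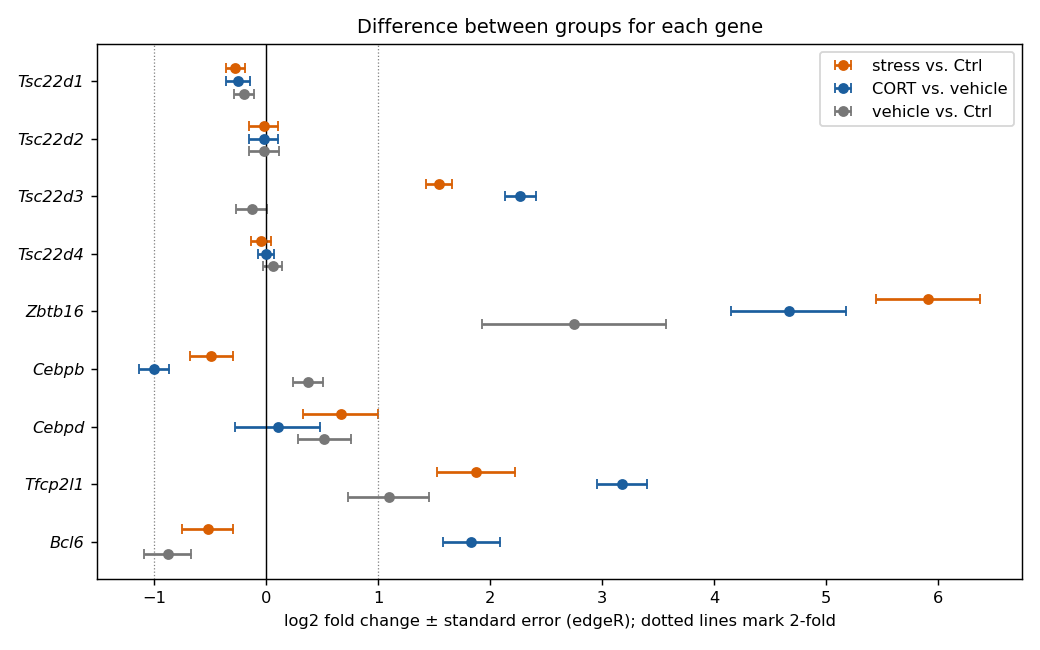
Log2 fold change of each gene ± SE (edgeR, n = 3 libraries per group) in stress vs. Ctrl, CORT vs. vehicle and vehicle vs. Ctrl. *Zbtb16* has the largest changes (5.91 and 4.67), *Bcl6* lies at -0.53 in stress and 1.83 in CORT, and *Tsc22d2* and *Tsc22d4* lie near 0 throughout.

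The control groups were also compared with each other, although both serve as controls above. Vehicle mice were injected and Ctrl mice were not, and the restraint protocol withholds food and water from its controls, so these differences cannot be told apart. None of the 9 genes was called between vehicle and Ctrl by edgeR or by DESeq2, where edgeR called 0.227% of 13642 genes higher and 0.132% lower. DESeq2 had 1 of the 9 past the adjusted p alone. In CPM, vehicle lay wholly above Ctrl for 1 gene (*Cebpb*) and wholly below for 1 (*Bcl6*), where this held for 8.51% and 7.65% of all genes. In FPKM, vehicle also lay wholly below Ctrl for *Tsc22d1*, and the *Cebpb* ranges overlapped. At an unadjusted p under 0.05, however, 6 of the 9 passed, beside 11.1% of all genes. The log2 difference was 2.75 ± 0.82 for *Zbtb16* (edgeR adjusted p = 0.192), 1.09 ± 0.36 for *Tfcp2l1* (edgeR adjusted p = 0.252) and -0.88 ± 0.21 for *Bcl6* (edgeR adjusted p = 0.103). For *Tsc22d3* it was -0.13 ± 0.14 (edgeR adjusted p = 0.798), for *Cebpb* 0.37 ± 0.14 (edgeR adjusted p = 0.311), for *Cebpd* 0.52 ± 0.23 (edgeR adjusted p = 0.450) and for *Tsc22d1* -0.20 ± 0.09 (edgeR adjusted p = 0.430). The *Zbtb16* value became 1.56 without vehicle 5 and 4.33 without Ctrl 1. *Tfcp2l1* was called without Ctrl 2 (1.73) and *Bcl6* without vehicle 3 (-1.07). The baseline of *Zbtb16*, *Tfcp2l1* and *Bcl6* was thus less settled than that of *Tsc22d3*.

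Ordered by level per length, *Tsc22d1* led Ctrl at 57.8 ± 1.96 FPKM (SD, n = 3), followed by *Tsc22d4*, *Cebpb* and *Tsc22d3* at 19.5, 17.7 and 17.0 FPKM, neighbours whose ranges overlapped. *Tfcp2l1* (0.642 ± 0.394) and *Zbtb16* (0.166 ± 0.204) closed the order and overlapped with each other. In stress *Tsc22d3* (47.3 ± 3.77) and *Tsc22d1* (44.4 ± 2.25) led with overlapping ranges, and *Zbtb16* reached the sixth place at 10.7 ± 1.19 FPKM, within the range of *Cebpb*. In vehicle the order resembled that of Ctrl, with *Tsc22d1* first (45.7 ± 2.60) and *Zbtb16* last (1.22 ± 1.23). In CORT *Tsc22d3* stood first without overlap (69.7 ± 12.1), and *Zbtb16* stood the third at 28.4 ± 1.69 FPKM, overlapping with *Tsc22d1* (33.6 ± 5.50). *Tfcp2l1* (12.0 ± 2.76), *Cebpb* (10.9 ± 0.993) and *Bcl6* (9.47 ± 2.71) followed further down, each overlapping with its neighbour, and *Tsc22d2* was last.

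**Figure D4:**
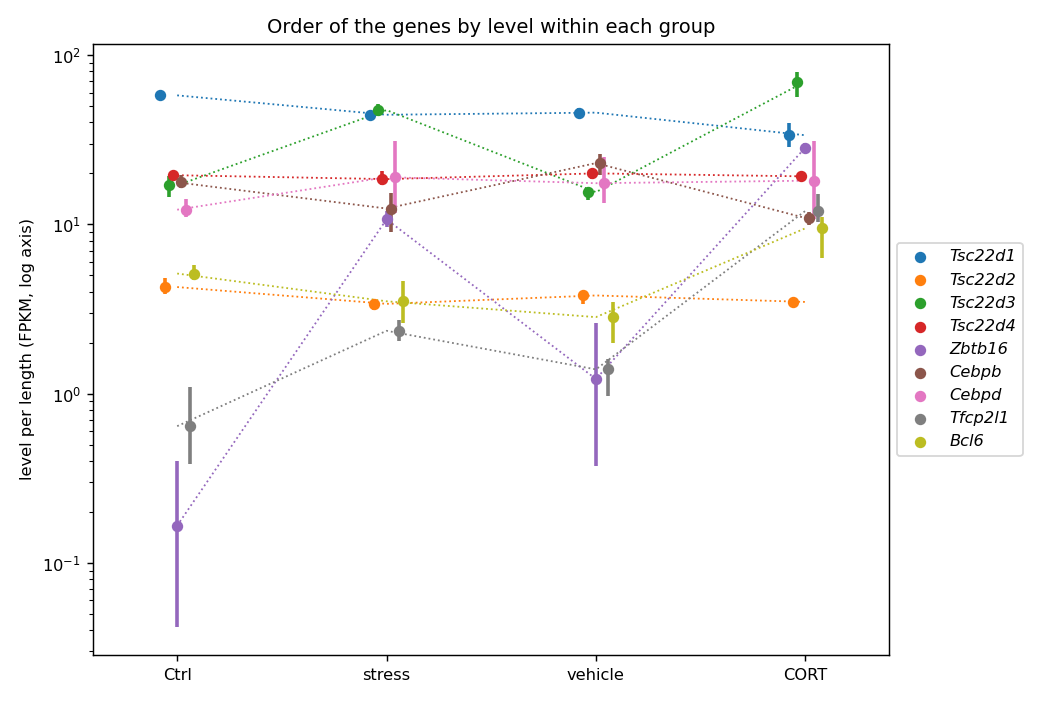
Mean level per length (FPKM, log axis) of each gene in the 4 groups, with vertical bars from the lowest to the highest of 3 libraries and dotted lines joining the means. *Zbtb16* rises from the last place in Ctrl (0.166) to the third in CORT (28.4), and *Tsc22d3* passes *Tsc22d1* in CORT (69.7 against 33.6).

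Across the 12 libraries, which fall into the 4 groups and so share their treatment, *Tsc22d3* and *Zbtb16* had a Pearson r of 0.94 on the log2(CPM + 1) scale, *Tsc22d3* and *Tfcp2l1* of 0.87, and *Tsc22d3* and *Cebpb* of -0.839. Among 14414 other genes the nearest in pattern to *Tsc22d3* were *N4bp2l1* (0.995), *Herpud1* (0.993) and *Trp53inp1* (0.984). For *Zbtb16* they were *Angptl4* (0.973), *Eif4ebp3* (0.970) and *Acot6* (0.965), and for *Tfcp2l1* *B3gnt3* (0.974), *Fkbp5* (0.973) and *Gm15889* (0.967). *Cebpb* was nearest to *Phf23* (0.959), *Rbm38* (0.957) and *Rrs1* (0.950), *Cebpd* to *Tmem222* (0.923), *Csf1* (0.900) and *St13* (0.888), and *Bcl6* to *Topbp1* (0.916), *Rps12-ps9* (0.896) and *Ccdc167* (0.888). For the *Tsc22d* genes that did not rise, the nearest were *Akirin2* (0.949), *Dnaja1* (0.914) and *Zfp703* (0.902) for *Tsc22d1*, *Zfp944* (0.897), *Gm10479* (0.870) and *Simc1* (0.868) for *Tsc22d2*, and *Zfand2a* (0.896) and *Ptges2* (0.887) for *Tsc22d4*. These values are descriptions over few libraries.

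Relatives and partners of the 9 genes were taken from 11 lists with 120 genes, of which 98 were tested in stress and 101 in CORT. The lists were chosen with earlier results of these data known. Their p-values, here and below, thus describe the list genes and are no independent support for the 9 genes. Called were 3 higher and none lower in stress, beside 0.612% and 0.138% of all genes, and 6 higher and 1 lower in CORT, beside 1.13% and 0.737%. At an adjusted p under 0.05 alone there were 5 in stress and 19 in CORT, where 1.89% and 8.13% of all genes were. The list closest in behaviour held 7 other regulators known to be induced by glucocorticoids, whose median log2 fold changes were 0.83 (stress) and 1.33 (CORT). Of these, *Klf9*, a zinc finger factor, rose from 39.5 to 49.8 CPM in Ctrl to 81.9 to 105 CPM in stress (log2 fold change 1.07 ± 0.12, edgeR adjusted p = 0.00248) and from 31.1 to 36.3 CPM in vehicle to 81.9 to 105 CPM in CORT (1.48 ± 0.10, edgeR adjusted p = 0.000128). *Hif3a*, a hypoxia-inducible factor subunit, rose by 3.18 ± 0.34 in stress (edgeR adjusted p = 0.00198) and by 2.89 ± 0.32 in CORT (edgeR adjusted p = 0.00109), and it was also higher in vehicle than in Ctrl by 2.45 ± 0.47 (edgeR adjusted p = 0.0428), a call lost without any 1 of Ctrl 1, Ctrl 2, Ctrl 3, vehicle 5 or vehicle 6, with no filter and in the fits to FPKM. The clock gene *Per1* rose by 0.83 ± 0.11 in stress (edgeR adjusted p = 0.00493, under 2-fold) and by 1.33 ± 0.18 in CORT (edgeR adjusted p = 0.00255), and *Klf15* rose by 1.65 ± 0.27 in CORT (edgeR adjusted p = 0.00629), with 0.98 ± 0.42 in stress (edgeR adjusted p = 0.297). *Foxo1* and *Cited2* were not past the thresholds in either comparison, and *Foxo3* passed only the adjusted p in CORT (0.51 ± 0.09, edgeR adjusted p = 0.00729). The stress calls of *Klf9* and *Hif3a* and the CORT calls of *Per1* and *Klf15* did not hold in part of the fits to FPKM. Leaving out stress 1+2 also lost the stress call of *Klf9*.

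The receptor genes themselves moved little. *Nr3c1*, the glucocorticoid receptor, was at 157 to 177 CPM in Ctrl, 147 to 170 CPM in stress and 157 to 165 CPM in vehicle, and it fell to 123 to 130 CPM in CORT (-0.37 ± 0.07, edgeR adjusted p = 0.0120, under 2-fold). *Nr3c2*, the mineralocorticoid receptor, ranged from 13.8 to 24.1 CPM, with 0.08 ± 0.14 in CORT (edgeR adjusted p = 0.807) and -0.01 ± 0.18 in stress (edgeR adjusted p = 0.987). *Hsd11b2*, which inactivates corticosterone, was at 8.26 to 11.4 CPM in Ctrl and higher in vehicle, at 20.2 to 37.02 CPM (1.56 ± 0.22, edgeR adjusted p = 0.0102), a call lost without Ctrl 1, without Ctrl 2 and in the fits to FPKM. *Hsd11b1*, which reactivates it, had no counts in any library, which at the floor of 12 counts allows up to 0.182 to 0.74 CPM.

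Families related to the 9 genes were mostly not past the thresholds. Of the other BTB zinc finger genes, edgeR called 0 of 39 tested in stress and 0 of 40 in CORT at 2-fold, as did DESeq2. At an unadjusted p under 0.05 there were 8 and 11, where 15.2% and 23.4% of all genes were. The adjusted p alone was passed by 0 and 1 in edgeR (*Zbtb1*, -0.45 in CORT, edgeR adjusted p = 0.0325) and by 1 and 5 in DESeq2. Negative log2 fold changes were found for 27 in stress and 27 in CORT. The medians were -0.06 and -0.16, beside -0.00281 and 0.0139 over all genes tested. Of the 3 tested C/EBP relatives, *Cebpa* fell by 0.55 in CORT (edgeR adjusted p = 0.00425, under 2-fold), the direction of *Cebpb*, and *Cebpg* and *Ddit3* did not pass. The 5 CP2 and grainyhead relatives of *Tfcp2l1* were not called by edgeR or DESeq2 in either comparison, with 0 and 1 at an unadjusted p under 0.05. The 6 partners of GILZ and 7 tested NRBP and WNK partners of the long *Tsc22d* isoforms were not called in stress or CORT by edgeR or DESeq2 at 2-fold, with 2 and 0 in stress and 1 and 2 in CORT at an unadjusted p under 0.05. Between vehicle and Ctrl, however, the AP-1 genes among the GILZ partners were lower in vehicle. *Fos* had a log2 difference of -3.16 ± 0.32 (edgeR adjusted p = 0.00155), at 50.8 to 100.3 CPM in Ctrl and 4.22 to 10.4 CPM in vehicle. The *Fos* call was lost with log2(FPKM + 0.1) and with log2(FPKM + 1) and no filter. *Jun* had a log2 difference of -0.78 ± 0.10 (edgeR adjusted p = 0.00661, under 2-fold). Among 10 corepressors of PLZF and BCL6, *Hdac7* fell by 0.99 (edgeR adjusted p = 0.00334) and *Bcor* by 0.57 (edgeR adjusted p = 0.0241) in CORT, both under 2-fold.

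Genes known to be repressed by BCL6 did not move one way. In CORT, where *Bcl6* was higher, 8 of 11 tested had a positive and 3 a negative log2 fold change, with a median of 0.29. In stress, where *Bcl6* was not higher, 6 of 10 tested were positive and 4 negative, with a median of 0.29 too. *Cdkn1a*, a cell cycle inhibitor, rose by 1.95 ± 0.35 (edgeR adjusted p = 0.0110) and the survival gene *Bcl2* by 1.34 ± 0.19 (edgeR adjusted p = 0.00299), while *Ccnd2*, a cyclin, fell by 0.87 (edgeR adjusted p = 0.00226, under 2-fold) and the kinase gene *Chek1* rose by 0.44 ± 0.09 (edgeR adjusted p = 0.0181, under 2-fold). The *Cdkn1a* and *Bcl2* calls did not hold in part of the fits to FPKM. In stress, both also lay wholly above Ctrl in CPM without being called by edgeR. There *Cdkn1a* stood at 1.29 ± 0.39 (edgeR adjusted p = 0.139, called by DESeq2) and *Bcl2* at 0.58 ± 0.17 (edgeR adjusted p = 0.134). In stress *Cish*, a brake on cytokine signaling, rose by 1.48 ± 0.26 (edgeR adjusted p = 0.0218). That call was lost without Ctrl 1, Ctrl 2, Ctrl 3 or stress 4+5+6, with no filter on low counts and in the fits to FPKM. *Ccnd2* fell by 0.50 in stress (edgeR adjusted p = 0.0392, under 2-fold). Of 9 genes known as C/EBP targets only 2 were tested, and neither was called by edgeR, while DESeq2 called 1 in CORT, with *Lcn2* at 1.67 ± 0.46 in CORT (edgeR adjusted p = 0.0561).

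The LIF and STAT3 network, of which *Tfcp2l1* is a known target in pluripotent cells, did not move one way in CORT. Of its 7 tested genes 3 had a positive and 4 a negative log2 fold change, 1 was called (*Socs3*, lower) and 5 passed an adjusted p of 0.05 alone, where 8.13% of all genes did. *Stat3*, the signal transducer, was lower in every CORT library (38.0 to 52.2 CPM) than in any vehicle library (76.1 CPM or more). The log2 fold change was -0.94 ± 0.14 (edgeR adjusted p = 0.00409, under 2-fold). Vehicle itself lay wholly above Ctrl for *Stat3* (55.4 to 71.5 CPM), which enters that change, and CORT lay below both. The feedback inhibitor of STAT3, *Socs3*, fell by 2.06 (edgeR adjusted p = 0.0285), from 13.7 to 51.6 CPM in vehicle to 4.21 to 10.02 CPM in CORT, with 13.2 to 18.0 CPM in Ctrl. The *Socs3* call was lost without vehicle 5, vehicle 6 (-1.34), CORT 2 or CORT 4 and in part of the fits to FPKM. The receptor subunit gene *Il6st* fell by 0.35 (edgeR adjusted p = 0.0483) and *Klf4* by 0.86 (edgeR adjusted p = 0.0348), and *Klf5* rose by 0.51 ± 0.09 (edgeR adjusted p = 0.0107), all under 2-fold. In stress none of the 6 tested genes was past an adjusted p of 0.05 in edgeR, with 2 at an unadjusted p under 0.05 and 0 called by DESeq2 at 2-fold.

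**Figure D5:**
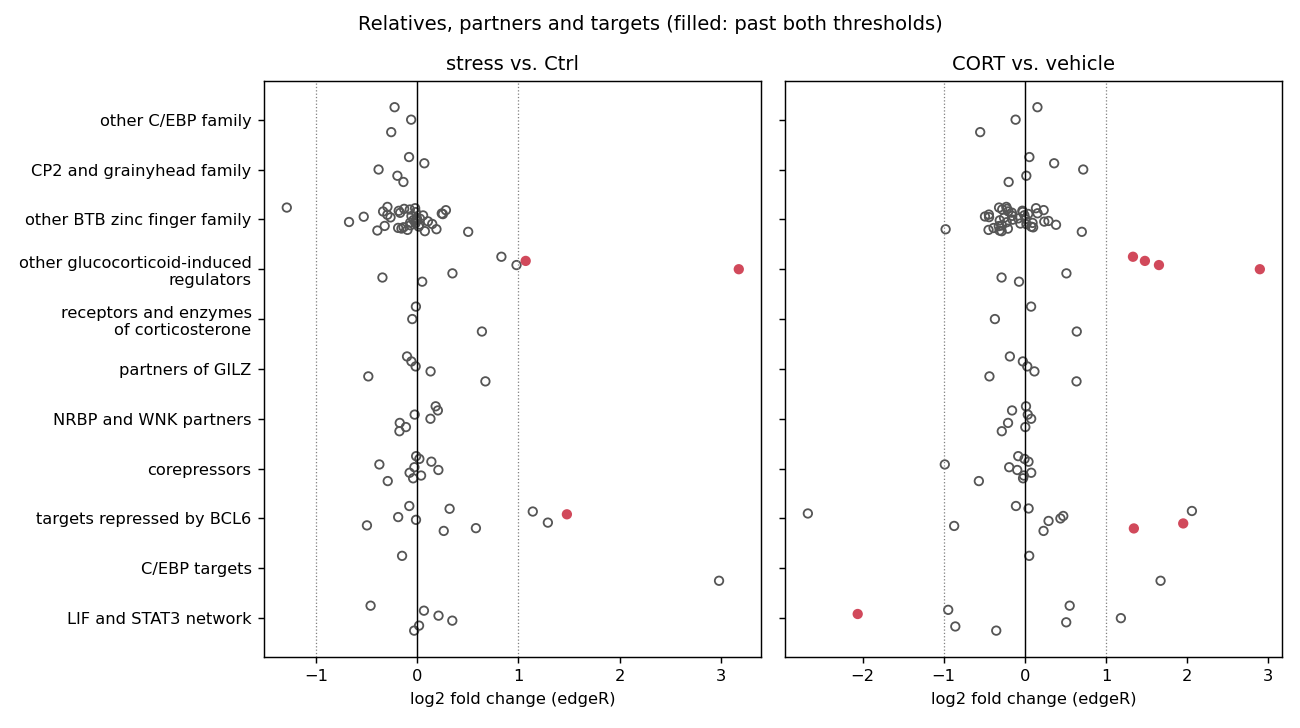
Log2 fold change (edgeR) of the tested genes of the 11 lists in stress vs. Ctrl (left) and CORT vs. vehicle (right). Each point is a gene, filled points are past an adjusted p of 0.05 and 2-fold (3 genes in stress and 7 in CORT), and dotted lines mark 2-fold; the filled points gather among glucocorticoid-induced regulators.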

How the data were processed

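RNA from sorted ISCs was measured in 12 libraries. Paired reads of 150 bp were mapped by the authors, with HISAT2, to mm10. The submitters' processing notes name HISAT2 2.2.1 and StringTie 2.2.1, whereas the methods name another HISAT2 version and featureCounts. Gene values in the deposited count table are estimated counts, not divided by library size. Coverage times transcript length gave 74.9 bases per count, and the counts were rounded. The authors deposited FPKM per gene and library, used here for levels per length and alternatives, and coverage (signal per base), which served to work out what 1 count stands for. No column was left without a sample (0).

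edgeR 4.0.16 in R 4.3.3 (TMM, filterByExpr, quasi-likelihood F-test, Benjamini-Hochberg over all genes tested) was fitted to the 6 libraries of each comparison and to all 12 for the difference between changes. The SE is the log2 fold change divided by the square root of F. Groups came from the labels. The methods state at least 3 biologically independent samples per group. Which mice went into each library is not given. Scripts were tested on simulated data. Alternatives were other size factors, DESeq2 1.42.0, other filters, thinning to 15934907 counts, 1 fit to all libraries, limma 3.58.1 on log2(FPKM + 1) or log2(FPKM + 0.1), and leaving out each library. An FPKM fold change on that scale understates low genes.

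The 9 genes and the lists were chosen with earlier results of these data known. Named were all 9 genes, list genes called in either study comparison, *Nr3c1* and *Nr3c2*, the 3 genes nearest in pattern to each (1 is not reported here), and markers that moved. Other list genes named, *Tmem189* included, were chosen after their values were seen. Gene spans and their overlaps are those of the deposited tables, and transcripts and exon overlaps come from GENCODE M21.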

Additional observations from a re-analysis of the deposited data

Results flagged for a closer look

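*Bcl6* stood out because its change in stress differed from its change in CORT. The difference was -2.36 ± 0.37 on the log2 scale (SE, 12 libraries, 3 per group), from -0.53 in stress and 1.83 in CORT. In CPM the gene was lower in 2 of 3 stress libraries than in every Ctrl library and higher in 3 of 3 CORT libraries than in every vehicle library. Both comparisons were known when the gene was picked, so the difference is a description. It ranged from -2.64 to -1.90 over the alternatives, and vehicle lay below Ctrl by 0.88 on the log2 scale.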

How the results depend on the processing

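No paired analysis was possible because the groups compared share fewer than 2 library numbers. Members called in stress ranged from 2 to 3 and in CORT from 4 to 5 over all alternatives. Between vehicle and Ctrl the count ranged from 0 to 1 when a library was left out, and for the difference between changes it was 2 with DESeq2, 0 in each of the 3 fits to FPKM and 0 to 1 when a library was left out. *Tsc22d2*, near 0, turned sign between vehicle and Ctrl, from -0.10 to 0.063 when a library was left out. List genes called in stress were 1 with log2(FPKM + 1), 0 with log2(FPKM + 0.1) and 1 with log2(FPKM + 1) and no filter, against 3. In CORT they were 2 with log2(FPKM + 1) and no filter, against 7. The causes were not tested. Genes called higher in stress numbered 84, but 151 with DESeq2, 25 with no filter on low counts, and 13 to 24 in the fits to FPKM, and 29 (without Ctrl 3) to 248 (without stress 3). In CORT they numbered 166, and 62 to 107 in the fits to FPKM. Between vehicle and Ctrl they numbered 31, but 55 with DESeq2, 0 to 10 in the fits to FPKM, and 12 (without Ctrl 1) to 88 (without vehicle 5). The difference between changes was past an adjusted p of 0.05 upward in 28 and downward in 28 genes, but in 256 and 121 with DESeq2 and 183 and 58 without stress 3. CORT libraries were deeper, and thinned to 15934907 counts the same 5 members were called. Depth limits *Zbtb16* in Ctrl, at 5 to 40 counts.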
